A study of Mus musculus with 6 samples.

Results

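The probes whose names begin with humanlincRNA numbered 1104 of the 60915 probes measured on the array, and they were taken by name alone, without regard to their signal. The number in each name was read as the locus and the sign before the suffix as the strand, which gave 557 loci. Of these, 547 carried 1 probe for the plus strand and 1 for the minus strand, 2 carried only a plus probe and 8 only a minus probe. Each probe was printed as a single spot. The samples were brain tissue of male mice aged 8 weeks, with 3 arrays after sham surgery and 3 arrays from mice killed 12 h after reperfusion that followed transient blockage of the middle cerebral artery, the stroke model known as tMCAO. The sources used here do not give the strain or the duration of the occlusion. RNA was depleted of ribosomal RNA, copied from random primers and labelled with Cy3, per the labels' protocols, which name the ischemic cortex of each mouse as the source of the RNA. The cortex of the sham mice is not named separately. The series' text speaks of independent experiments, 3 in each group, without further detail, so p-values measure the spread between these 6 arrays. Of 22 marker genes for the cell types of brain and blood, 0 are named on the array, so the labelled tissue was not checked against them.

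Long intergenic noncoding RNAs (lincRNAs) are transcripts made from the space between protein-coding genes that are not translated into a known protein. Many are spliced and polyadenylated like messenger RNA, are present at low levels, and are found in a narrower range of tissues than messenger RNA, with the brain among the tissues that express many of them. A probe for each strand of a locus can show which strand is transcribed, provided that labelling keeps the strand. Whether it did so here is not given in the sources used. The array's header names a mouse genome build, and what the word human in these names stands for (a human transcript or a mouse counterpart of one) is likewise not stated. The members are therefore described by name, locus number and strand, and no gene or function is assigned to them.

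About 1 in 3 humanlincRNA probes gave a signal well above background, and the share depended on the mark used. A probe was called detected when the scanner software marked its spot as well above background on 3 or more arrays of 6, after spots with an outlier mark had been left out. By this rule 360 of 1104 probes (32.6%) were detected, against 35.6% of mouselincRNA probes, 50.6% of MM9LINCRNAEXON probes and 73.9% of the probes with anonymous design codes. Under the software's laxer mark, positive and significant, 687 members (62.2%) were detected. Detection was largely all or none, with 665 probes above background on 0 arrays and 296 on all 6. The probes in between were few, namely 50 on 1 array, 29 on 2, 18 on 3, 21 on 4 and 25 on 5. Just inside the rule lay humanlincRNA0065+, above background on 1 sham and 2 tMCAO arrays, and just outside it humanlincRNA0059+, above background on 2 sham arrays and 0 tMCAO arrays. Its levels were -4.01, -4.30 and -4.61 in sham and -4.96, -5.00 and -4.40 in tMCAO, on the scale of all levels below (log2 signal minus that of the array's 75th percentile).

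**Figure D1:**
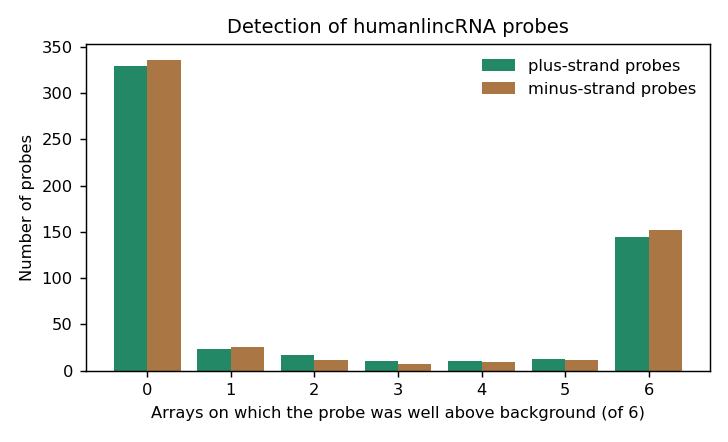
Number of humanlincRNA probes (vertical axis) by the number of the 6 arrays on which the probe was well above background (horizontal axis), with plus-strand probes in green and minus-strand probes in brown. Both strands peak at 0 arrays (329 and 336 probes) and at 6 arrays (144 and 152), with few probes between.

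The numbers detected per array overlapped between the groups. It was 339, 376 and 358 probes in sham and 365, 361 and 348 in tMCAO. Of all members, 57 were above background on more tMCAO than sham arrays, 54 on more sham than tMCAO arrays, and 328 on the same number above 0. These were 5.16% and 4.89% of members for the unequal counts, whereas over all probes 5.43% were above background on more tMCAO arrays and 2.86% on more sham arrays. The sole member above background on all 3 tMCAO arrays and on 0 sham arrays was humanlincRNA0512+ (0.0906% of members, against 0.323% of all probes), and 0 members had the reverse pattern (0.0263% of all probes). Its levels were -4.35, -4.69 and -4.66 in sham and -4.37, -4.19 and -4.12 in tMCAO, so that tMCAO replicate 1 lay within the sham range. Its tMCAO mean was 1.07-fold higher than sham levels raised, where lower, to the lowest signal that counted as above background on the array. This is not a lower limit on the change. humanlincRNA0512+ did not pass the test (limma, adjusted p = 0.259). Its log2 difference of 0.34 turned to -0.10 with normexp background correction.

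Negative control probes show how the detection mark behaved without a target. Of 300 spots of the 15 probes named NEGATIVE, between 40 and 45 were marked as well above background on each array (13.3% to 15.0%). These came almost wholly from 2 probes, MM9NEGATIVE016 and MM9NEGATIVE017, all 20 spots of which were marked on every array. For the other 13 probes, a division made after these values were seen, the share was between 0% and 1.92% of 260 spots. The members' share per array was 30.7% to 34.1%, above both. Under the laxer mark, 24.7% to 28.3% of the 300 spots were marked, and 13.1% to 17.3% of the 260.

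Plus and minus probes were detected about equally often, and most loci detected by the stricter mark were detected on 1 strand. Of 549 plus probes 179 (32.6%) were detected, and of 555 minus probes 181 (32.6%). Among the 547 loci with both probes, 66 were detected on both strands, 113 on the plus strand alone, 112 on the minus strand alone and 256 on neither. Thus 225 of the 291 detected loci (77.3%) had signal well above background on 1 strand. Under the laxer mark 211 loci were detected on both strands, 127 on plus alone and 131 on minus alone, so that 258 of 469 (55.0%) were on 1 strand. Detection on one strand went with only a slightly higher share on the other: the minus strand was detected at 66 of 179 loci with the plus strand (36.9%) and at 112 of 368 loci without it (30.4%). Single arrays gave the same picture, with 60 to 70 loci on both strands, 105 to 116 on plus alone and 105 to 121 on minus alone. Of the 10 loci with a single probe, humanlincRNA0247-, humanlincRNA0522- and humanlincRNA0957- were above background on all 6 arrays and the other 7 on 0.

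Most loci with a clear strand pattern in sham had the same pattern after tMCAO. With a strand counted as present when above background on all 3 arrays of a group and absent when on 0, 90 loci were plus only in sham, of which 80 were plus only in tMCAO and 10 fell between the definitions. Another 90 were minus only in sham, of which 80 were minus only in tMCAO, 9 fell between, and 1, locus 0512, was present on both strands. Of 50 loci present on both strands in sham 46 were so in tMCAO, and of 223 present on neither 210 were so in tMCAO. The 94 loci between the definitions in sham were less settled: 49 stayed between in tMCAO, 20 were present on neither strand, 10 on minus only, 9 on plus only and 6 on both. The number that went from one strand alone to the other alone was 0.

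For the comparison of tMCAO with sham, 358 of the 360 detected probes had at least 2 values in each group and were tested with limma together with all other detected probes of the array, 44288 in all. The other two, humanlincRNA1070- and humanlincRNA1596+, had lost 2 tMCAO spots each to outlier marks. The 744 undetected members were left out of this test, 327 of which were detected under the laxer mark. After adjustment over the whole array, 1 member was higher (0.279%) and 0 were lower (limma, adjusted p under 0.05). Over all tested probes 1.24% were higher and 0.187% lower, 1.42% in all. The count of members was 0 without sham replicate 3 or tMCAO replicate 1 and 9, with 8 of them lower, without tMCAO replicate 3. The shares of all tested probes in these fits are not given here, so the counts cannot be set against the whole array.

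Short of that threshold, small negative differences prevailed. At an unadjusted p under 0.05, 63 of 358 members lay lower (17.6%) and 7 higher (1.96%), against 9.4% and 8.5% of all tested probes. The groups did not overlap, with tMCAO below sham, for 70 members (19.6%, against 13.1% of all tested probes), and with tMCAO above sham for 7 (1.96%, against 11.6%). The number lower at an unadjusted p under 0.05 ranged from 33 without tMCAO replicate 1 to 161 without tMCAO replicate 3. For these fits too, the shares of all tested probes are not given here. Differences of 2-fold or more were found upward in 4 members (1.12%, against 1.58% of all tested probes) and downward in 0 (against 0.0971%).

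The median difference of the 358 members was -0.24 log2 units, or 1.18-fold lower, and 303 of them (84.6%) lay below 0. Over all tested probes the median was -0.050 and 57.8% lay below 0. The middle 50% of members lay between -0.35 and -0.11, and 26 were at or below -0.5. mouselincRNA probes had a similar median of -0.24 with 85.3% below 0, and MM9LINCRNAEXON probes one of -0.15 with 70.7% below 0. The plus and minus strands had medians of -0.25 and -0.22. With no filter on signal, which adds members that were not detected, 947 of 1099 members lay below 0 (median -0.22). Over the whole array 37983 of 60873 probes did so (median -0.092). Of the 296 members above background on all 6 arrays, 258 lay below 0 (median -0.25), against 23730 of 40893 such probes (median -0.049).

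**Figure D2:**
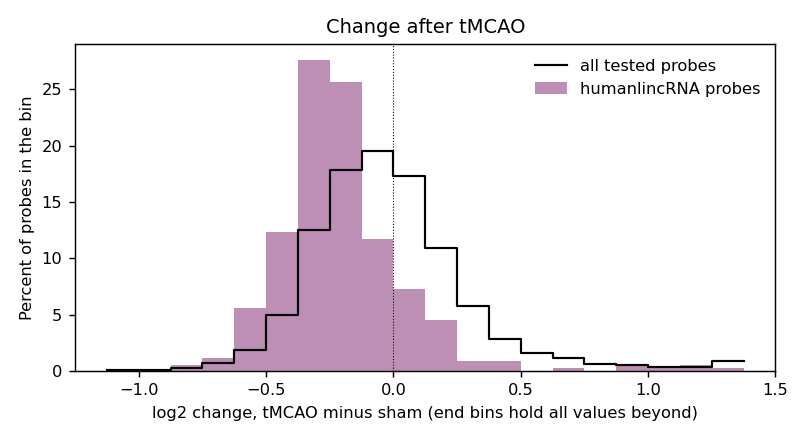
Share of probes (percent, vertical axis) by log2 change, tMCAO minus sham, (horizontal axis, in bins of equal width, with the outermost open-ended), for the 358 tested humanlincRNA probes (purple bars) and all 44288 tested probes (black line). The purple bars centre on -0.24 and the line on -0.050, and the bars are below the line from 0 to 0.75.

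The shift was seen on 2 of the 3 tMCAO arrays. Relative to each probe's sham mean, the members' median was -0.33 on tMCAO replicate 1 and -0.38 on tMCAO replicate 2, but 0.012 on tMCAO replicate 3. On the sham arrays it was 0.0040, -0.045 and 0.052. Below their sham mean lay 313 of 357 members on tMCAO replicate 1, 311 of 355 on replicate 2 and 170 of 357 on replicate 3. tMCAO replicate 3 thus lay within the range of the sham arrays. The medians of all tested probes were -0.050, -0.094 and 0.015 on the same tMCAO arrays. The members' spread was also wider after tMCAO, with a median SD of 0.28 against 0.17 log2 units in sham, while all tested probes had 0.18 and 0.13.

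**Figure D3:**
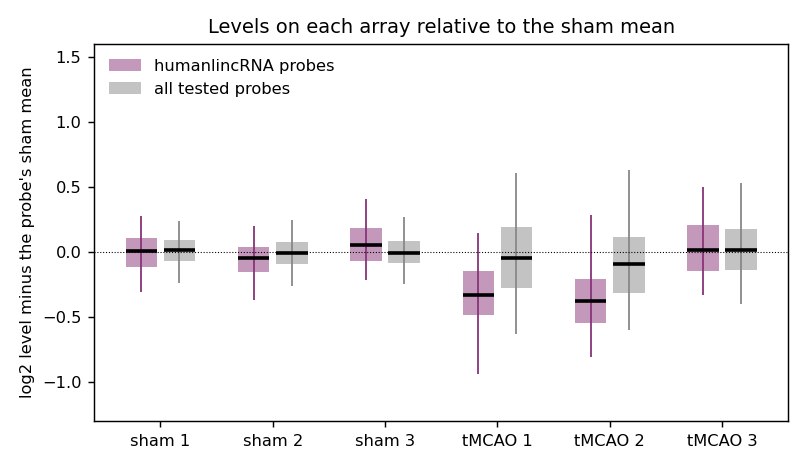
Level on each array minus the probe's sham mean (log2 units, vertical axis) for the 358 humanlincRNA probes (purple) and all tested probes (grey), with boxes for the middle 50%, black lines for the median and thin lines from the 5th to the 95th percentile. The purple boxes lie lowest on tMCAO 1 and tMCAO 2 (medians -0.33 and -0.38), and on tMCAO 3 the median is 0.012.

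Brightness of the arrays and their position moved with this shift. The 75th percentile used for scaling was 934.6 and 918.6 intensity units on tMCAO replicates 1 and 2, 537.2 on replicate 3 and 555.5 to 705.5 on the sham arrays. Before scaling, the members' median intensity was 72.3, 82.0 and 97.9 in sham and 100.8, 94.7 and 76.8 in tMCAO, so that the groups overlapped and the members' lower levels are lower relative to the rest of the array. The first number of the array position in the file headers was 1 for sham and tMCAO replicates 1 and 2, and 2 for sham and tMCAO replicate 3. Within the first set the median difference was -0.35, with 317 of 353 members below 0 (all tested probes, -0.075), and within the second, with 1 array per group and no replicate, -0.052 with 213 of 357 below 0 (all tested probes, 0.011). The part of brightness and position in the shift was not tested.

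The members were dim on the whole, and their median difference was below 0 at each signal level. When all tested probes were divided by mean signal into 3 equal groups, 228 members (63.7%) fell in the dimmest, 90 in the middle and 40 in the brightest. Their median differences were -0.24, -0.26 and -0.22, against -0.12, -0.069 and 0.020 for all tested probes of the same groups. The share below 0 was 87.7%, 84.4% and 67.5% of members, against 67.2%, 60.3% and 45.9%. Of the 7 members higher at an unadjusted p under 0.05, 5 were in the brightest group, and of the 63 lower, 3 were.

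The member that passed the test was humanlincRNA1516-, which rose. Its intensity was 5555, 11571 and 12010 in sham and 124149, 82353 and 25629 in tMCAO, so that every tMCAO spot was brighter than every sham spot. The spots of sham replicate 1 and tMCAO replicate 3 had an outlier mark and were left out of the test. The remaining levels were 4.26 and 4.09 in sham and 7.05 and 6.49 in tMCAO, a rise of 2.60 ± 0.22 log2 units (SE, 2 arrays per group) or 6.05-fold (limma, adjusted p = 0.0095). With the marked spots kept the rise was 2.48 log2 units (limma, adjusted p = 0.029). Among the fits without 1 array, the call was lost without sham replicate 3 (limma, adjusted p = 0.059) and without tMCAO replicate 1 (limma, adjusted p = 0.055), within a range of 0.0021 to 0.059 over 15 alternatives. The opposite strand, humanlincRNA1516+, was above background on 0 arrays.

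Other members with a higher mean after tMCAO did not pass the adjusted test. The naming rule, which asked for an unadjusted p under 0.05, groups without overlap and, in the higher group, signal above background on each of its arrays, left 3 of them. humanlincRNA1739+ was at 6.76, 8.00 and 7.36 in sham and at 8.55, 8.76 and 8.09 in tMCAO, a difference of 1.09 ± 0.31 log2 units (SE; limma, adjusted p = 0.145). The groups were separated by a narrow gap, since sham replicate 2 came close to tMCAO replicate 3. humanlincRNA0847- was at 4.18, 4.48 and 4.73 in sham and at 5.04, 5.53 and 4.79 in tMCAO (difference 0.65 ± 0.22, SE; limma, adjusted p = 0.193). humanlincRNA2312- was dim and even within groups, at -2.88, -2.73 and -3.02 in sham and at -2.54, -2.48 and -2.40 in tMCAO (difference 0.40 ± 0.12, SE; limma, adjusted p = 0.161). Unlike humanlincRNA1739+ and humanlincRNA0847-, it had its highest scaled level on tMCAO replicate 3. Before scaling, replicate 3 was the dimmest tMCAO spot of all 3 members. The intensity of humanlincRNA2312- was 75.3, 91.6 and 87.2 in sham and 160.7, 164.3 and 101.9 in tMCAO. With normexp background correction its difference was 0.17 (limma, adjusted p = 0.461). The opposite strand of each of these 3 loci was above background on 0 arrays.

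The 9 members with a mean sham level over 4 included most of the large positive differences, and this cutoff was taken over from earlier work on these arrays. Their difference was above 0 for 5 and below 0 for 4, and over all 3821 tested probes past the cutoff it was above 0 for 57.3%. The median difference was 0.65 log2 units for the 9 members and 0.027 for the 3821 probes. The 5 were humanlincRNA1516-, humanlincRNA1739+, humanlincRNA0847-, humanlincRNA2330+ and humanlincRNA2397+. Intensities of humanlincRNA1739+ and humanlincRNA2397+ were similar on every array. They were closest on sham replicate 2 (154830 and 151269) and farthest apart on tMCAO replicate 3 (146433 and 120829). Whether these probes measure separate transcripts was not tested. humanlincRNA2330+ was at 5.57, 6.70 and 5.75 in sham and at 7.41, 7.77 and 6.37 in tMCAO, and humanlincRNA2397+ at 6.91, 7.96 and 7.24 and at 8.35, 8.68 and 7.81. Both overlapped, because sham replicate 2 lay above tMCAO replicate 3, and neither passed (differences 1.17 ± 0.40 and 0.91 ± 0.30, SE; limma, adjusted p = 0.203 and 0.194). All 5 were lowest among the tMCAO arrays on replicate 3, and all 5 lay higher on sham replicate 2 than on sham replicate 1 (for humanlincRNA1516- with its marked spots kept). Of the other 4, 3 also lay higher on sham replicate 2, as did 2280 of the 3821 bright probes. An excess over 0.5 log2 units was found in 257 of the 3821 and in 3 members, with the marked humanlincRNA1516- not counted. These were humanlincRNA1739+, humanlincRNA2330+ and humanlincRNA2397+, at 1.24, 1.14 and 1.06 log2 units. The other 4 bright members lay lower, from humanlincRNA2438+ at -0.07 ± 0.11 through humanlincRNA0635+ at -0.31 ± 0.16 and humanlincRNA1016- at -0.32 ± 0.24 to humanlincRNA2052+ at -0.59 ± 0.20 log2 units (SE; limma, adjusted p between 0.207 and 0.745).

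Of the members with lower levels after tMCAO, 48 met the naming rule, and the 10 with the largest differences lay between -0.81 and -0.52 log2 units (limma, adjusted p from 0.135 to 0.214). humanlincRNA2077+ was at 2.22, 1.93 and 1.77 in sham and at 0.89, 0.92 and 1.68 in tMCAO, a difference of -0.81 ± 0.23 (SE; limma, adjusted p = 0.147). humanlincRNA1627+ was at -0.70, -1.03 and -1.13 in sham and at -2.09, -1.86 and -1.18 in tMCAO, a difference of -0.76 ± 0.24 (SE; limma, adjusted p = 0.176). In both, the scaled level of tMCAO replicate 3 lay close to the lowest sham array and those of replicates 1 and 2 far below it. Before scaling, the tMCAO arrays were alike. The intensity of humanlincRNA2077+ was 2592, 2309 and 2406 in sham and 1735, 1740 and 1721 in tMCAO. That of humanlincRNA1627+ was 341, 297 and 323 in sham and 219, 254 and 238 in tMCAO. The part of the scaling in the pattern of the replicates was not tested. humanlincRNA2052+ had the same pattern of levels, at 4.59, 4.18 and 4.19 in sham and at 3.51, 3.52 and 4.15 in tMCAO. Its intensity was 13419, 10955 and 12870 in sham and 10667, 10511 and 9537 in tMCAO, lowest on replicate 3. In humanlincRNA0347- the level of replicate 3 was again the nearest to sham, at -2.63, -2.78 and -2.67 in sham and -3.60, -3.17 and -2.87 in tMCAO. Its intensity was 89.7, 88.1 and 111.2 in sham and 77.2, 102.2 and 73.6 in tMCAO. Without tMCAO replicate 3, humanlincRNA2077+ and humanlincRNA1627+ passed, at -1.07 and -1.02 log2 units (limma, adjusted p = 0.029 and 0.037), as did humanlincRNA0318+ at -0.70 (limma, adjusted p = 0.039).

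In 3 of the 10, humanlincRNA1436-, humanlincRNA0848- and humanlincRNA0075+, another tMCAO array was the nearest to sham. humanlincRNA1436- was at -2.73, -2.73 and -2.41 in sham and at -3.82, -2.97 and -3.16 in tMCAO, where replicate 2 and not replicate 3 was the nearest to sham. humanlincRNA0848- was at -2.33, -2.52 and -2.17 in sham and at -2.66, -3.25 and -2.87 in tMCAO, with replicate 1 the nearest to sham. humanlincRNA0075+ was above background on only 1 array of the tMCAO group, which leaves its difference of -0.62 ± 0.20 (SE; limma, adjusted p = 0.176) uncertain in size. humanlincRNA1543- was at 0.022, -0.36 and -0.14 in sham and at -1.40, -0.77 and -0.50 in tMCAO, again with replicate 3 the nearest to sham, as it was for humanlincRNA0825- and humanlincRNA0318+. These are scaled levels. In intensity, replicate 3 was the dimmest tMCAO spot of humanlincRNA0825- and humanlincRNA0318+, and replicate 1 that of humanlincRNA1543-. For the 10, the differences within the first array position were -1.17 to -0.53 and within the second -0.75 to -0.039. Since the naming rule asked for groups without overlap, the sign of these values was fixed by it.

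**Figure D4:**
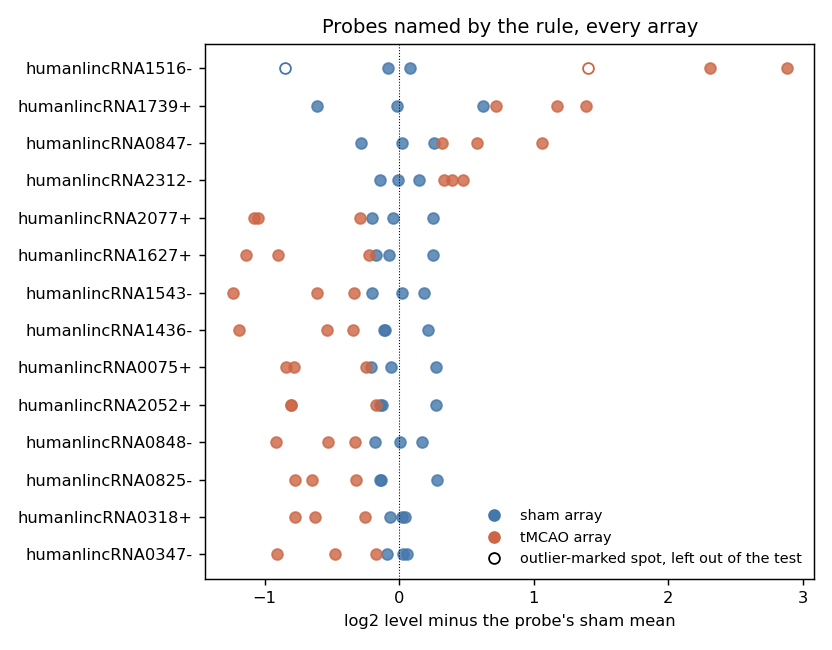
Level on each array minus the probe's sham mean (log2 units, horizontal axis) for the member that passed the test, the 3 further members named as higher and the 10 named as lower, with sham arrays in blue, tMCAO arrays in red and open circles for spots left out for an outlier mark. humanlincRNA1516-, with a fitted difference of 2.60, has the points farthest right, and among the lower members the red points run from near the sham range to more than 1 log2 unit below it.

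Whether the strands of a locus changed differently was tested from the difference between the plus and minus levels on each array. The scaling of the array, the same for all its probes, cancels in this difference. An array difference that varies with signal does not cancel where the strands differ in signal. Of the 115 lincRNA-named loci tested on both strands, 66 were humanlincRNA loci. After adjustment over the 115 loci 0 passed (0%), and at an unadjusted p under 0.05 there were 12 (10.4%), 4 of them humanlincRNA loci (limma). The plus and minus differences of the 66 loci had a Pearson r of -0.086 and a Spearman rho of -0.048, as a description of loci that share the same 6 arrays. Both strands lay below 0 at 43 loci, both above 0 at 1, plus above and minus below at 12, and plus below and minus above at 10.

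Among the 66 humanlincRNA loci, the smallest p in that test was that of humanlincRNA2397. Its plus strand differed by 0.91 ± 0.30 and its minus strand by -0.47 ± 0.14 log2 units (SE), a gap of 1.39 ± 0.41 (SE; limma, adjusted p = 0.315). The minus strand was at -1.14, -1.34 and -1.39 in sham and at -1.81, -1.93 and -1.55 in tMCAO, without overlap. humanlincRNA0512 had the next smallest p, but its plus strand was above background on 0 sham arrays, so the gap between its strands has no measured size. At humanlincRNA2077 they differed by -0.81 and -0.13, at humanlincRNA0373 by -0.51 and 0.098, and at humanlincRNA0638 by -0.33 and 0.092 log2 units (limma, adjusted p between 0.38 and 0.504 for the gaps). The minus strand of humanlincRNA2077 had no steady direction. It was at -3.45, -3.27 and -3.66 in sham and at -3.95, -4.16 and -2.66 in tMCAO, so that tMCAO replicate 3 was the highest of the 6 arrays and replicates 1 and 2 the lowest.

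**Figure D5:**
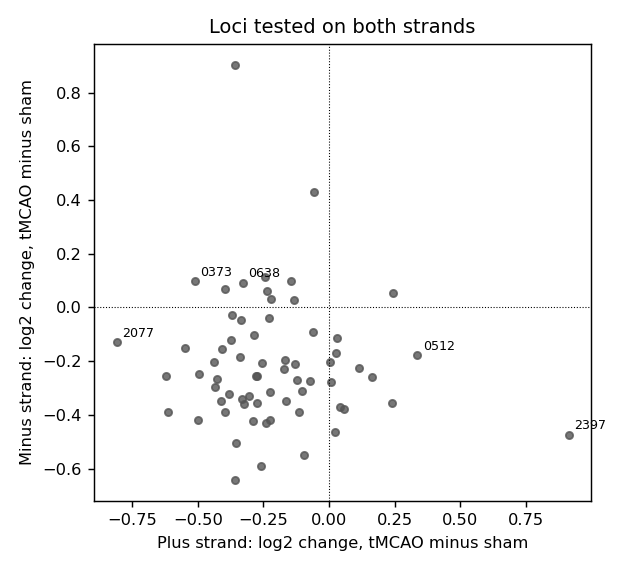
log2 change, tMCAO minus sham, on the plus strand (horizontal axis) and the minus strand (vertical axis) of the 66 humanlincRNA loci tested on both, with the numbers of the 5 of them with the smallest p in the strand test (the plus value of locus 0512 rests on sham signal not above background). Of the points 43 lie below 0 on both axes, and locus 2397 lies farthest right, at 0.91 and -0.47.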

How the data were processed

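The 6 single-colour arrays, 3 sham and 3 tMCAO, were analysed. Per the submitters' processing notes, the scanner tables were made with Agilent Feature Extraction 11.0.1.1. The deposited spot values are intensity on a linear scale, and the processed signal is background-subtracted but not normalized between arrays, per the file headers. The authors also deposited log2 normalized values, whose method the sources used here do not give and whose column medians were 6.895 to 6.897. They served as an alternative.

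From the log2 of the processed signal, that of the 75th percentile over 61500 non-control spots was subtracted. Outlier-marked spots were left out. Tested probes were well above background on 3 or more arrays, with 2 or more values per group. limma 3.58.1 in R 4.3.3 (lmFit, eBayes, two-sided) was fitted on 44288 probes, with Benjamini-Hochberg adjustment and a threshold of 0.05. The fits were tested on simulated data. The files hold no gMeanSignal column, so normexp (offset 50) used the median signal.

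Named are all members past the threshold, the 10 largest rises and falls as the text defines them, members detected in 1 group alone, and the 5 humanlincRNA loci with the smallest p in the strand test. The members and lists were chosen with earlier results of these data known. Precision is limited by the number of arrays. Probe sequences and genome coordinates were not used here.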

Additional observations from a re-analysis of the deposited data

How the results depend on the processing

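The members' median difference was below 0 in each of 16 alternatives. It lay between -0.38 log2 units without tMCAO replicate 3 and -0.16 without tMCAO replicate 2. With quantile normalization, with median centring and in the authors' values it was -0.17, smaller in size than the -0.24 reported. The median of all tested probes turned from -0.050 to 0.018 with median centring. These differences are relative to the rest of the array. With no scaling, the members' median relative to the sham mean was 0.26, 0.19 and -0.19 on the tMCAO arrays, against -0.15, -0.077 and 0.24 in sham, so that tMCAO replicates 1 and 2 lay above 0. The number of members past the threshold was 1 as reported, 2 with no filter on dim probes (the second being humanlincRNA1918-, lower and above background on 0 arrays), 0 with signal on all 6 arrays required, and 0 to 9 without 1 array. With all 6 arrays required humanlincRNA1516- could not enter the test, whatever its signal, since its outlier-marked spots counted as not above background. At an unadjusted p under 0.05 the number, 70 as reported, was 38 to 168 without 1 array. Neither range without 1 array has the share of all tested probes beside it. With replicate number as a block (replicate block), 0 members passed and humanlincRNA1516- was at 2.23 (limma, adjusted p = 0.053), while 2 loci passed the strand test, humanlincRNA2397 and humanlincRNA2354 (limma, adjusted p = 0.0083 and 0.038). The minus strand of humanlincRNA2354 was at 1.23 on tMCAO replicate 2, against -1.40 to -1.02 on the other arrays. The deviations of same-numbered arrays correlated with r of 0.021, 0.095 and 0.127, so the number was not taken to pair them; they also share the first number of the array position. The array position as a block, chosen after seeing the data, kept humanlincRNA1516- past the threshold (limma, adjusted p = 0.034). A slide or scan block could not be fitted because all 6 arrays share 1 scan. Under a laxer detection mark (positive and significant), 687 probes were detected, and 211 loci on both strands.

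Some single differences turned sign. humanlincRNA0373- was at -0.014 and -0.10 without sham replicate 2 and tMCAO replicate 3 (up to 0.32 without tMCAO replicate 2), humanlincRNA0638- at -0.013 without tMCAO replicate 3 (up to 0.27 without tMCAO replicate 1), humanlincRNA2077- at 0.050 and 0.16 without tMCAO replicates 1 and 2 (down to -0.60 without tMCAO replicate 3), and humanlincRNA0512+ at -0.10 with normexp. The cause was not tested.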

Other observations

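A few members had 1 array far from the other 5. On tMCAO replicate 2, humanlincRNA0997+ was at 2.97, against -0.86 to 0.058 on the other arrays, and humanlincRNA2354- was at 1.23, against -1.40 to -1.02. These were the 2 members whose highest array exceeded every other by at least 1 log2 unit. Over all tested probes 417 had such a high on tMCAO replicate 2, 54 on tMCAO replicate 3, 12 on tMCAO replicate 1 and 1 to 23 on each sham array. Neither member passed the test (limma, adjusted p = 0.446 and 0.432), and the opposite strand of humanlincRNA0997+ was above background on 0 arrays.

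Both members that were detected but not tested were also brightest on tMCAO replicate 2. humanlincRNA1070-_P1 had an intensity of 130.9, 165.1 and 203.0 in sham and of 595.2, 1248 and 146.2 in tMCAO, with tMCAO replicates 1 and 2 marked. humanlincRNA1596+_P1 was at 395.3, 62.7 and 254.4 in sham and at 516.4, 10366 and 81.8 in tMCAO, with the same 2 arrays marked. humanlincRNA2246- was marked on all 6 arrays and humanlincRNA1907- on 5, so neither gave a comparison.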
